A study of Homo sapiens with 6 samples.

Results

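The control arm of this RNA sequencing study of CCD18Co, a fibroblast line grown from normal human colon, is described here on its own: the 3 libraries labelled siNT, chosen by that treatment label, of 6 libraries in the series. The cells received a pool of siRNAs that targets no human gene, delivered with the lipid reagent Lipofectamine 2000, and they were collected 48 h after a transfection of 6 h. The siNT cells are therefore a transfected baseline, and untreated cells are not analysed here. All 3 libraries come from 1 line, and the labels do not say whether they were separate cultures. The spread between them is given as measured and may be technical.

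Fibroblasts are the cells that make and remodel the collagen matrix of connective tissue. In the colon they lie beneath and around the epithelial crypts, where distinct populations supply WNT and BMP signals, and some take on a contractile, smooth-muscle-like state as myofibroblasts. Fibroblasts also keep a record of their place in the body in the HOX and other transcription factors that they express.

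The libraries held 46969325, 47139081 and 53576899 counts on genes, and their composition was close (TMM factors of 0.979 to 1.03). Between any pair of libraries the Pearson correlation of log2 values across genes was 0.993. Of the 60663 genes in the table, 12995 were expressed, taken here as a mean of at least 1 CPM, a count scaled to a library of 1000000 counts. They comprised 11409 of 19965 protein-coding genes (57.1%), 1001 of 16876 long noncoding RNA genes (5.93%) and 585 genes of other types. A count of 0 in a library allows a level of up to 0.0564 to 0.0652 CPM (3 counts), from counting error alone.

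Protein-coding genes took 97.9%, 97.0% and 97.5% of the counts in replicates 1, 2 and 3. Long noncoding RNAs took 1.08%, 1.29% and 1.05%. Most of the remainder was misc_RNA, an annotation class led by the signal recognition particle RNA *RN7SL1*, at 0.630%, 1.27% and 1.04% of counts. The counts were spread over many genes, since the 10 most abundant took 6.43% to 6.58% of a library and it took 968, 1030 and 1041 genes to reach 50% of it.

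By the mean of counts over the 3 libraries, the order began with *ACTB* (cytoplasmic actin, 11138, 9461 and 9706 CPM), *MT-CO1*, *RN7SL1*, *EEF1A1*, *CD44*, *THBS1*, *FTL*, *VIM*, *GAPDH* and *COL6A3*. *MT-CO1* was above *ACTB* in replicate 1 and *RN7SL1* in replicate 2, and both were above it in replicate 3. A long transcript gives more counts than a short one at the same abundance, so levels of different genes are compared below in TPM, which divides counts by the length of a gene's exons and scales each library's sum to 1000000. No TMM factor enters TPM, and *RN7SL1* alone took 79866, 147787 and 122367 TPM of those sums. The order of the libraries for 1 gene can therefore differ between TPM and CPM. *PITX1*, for example, had 984, 947 and 937 TPM but 870, 878 and 886 CPM. Among nuclear protein-coding genes in TPM the order began with *FTL*, *TMSB10*, *ACTB*, *GAPDH*, *S100A6*, *LGALS1*, *FTH1*, *VIM*, *EEF2* and *ACTG1*. The next were *PFN1*, *RPS2*, *HMGA1*, *THBS1*, *EEF1A1*, *CD44*, *HSPB1*, *SH3BGRL3*, *TUBB* and *NQO1*. These are mainly genes of the actin cytoskeleton (*ACTB*, *ACTG1*, *TMSB10*, *PFN1*), iron storage (*FTL*, *FTH1*), translation (*EEF1A1*, *EEF2*, *RPS2*) and the mesenchymal cytoskeleton and surface (*VIM*, *CD44*). *FTL*, the ferritin light chain, stood first at 20493, 21371 and 24113 TPM. With the length of 1 canonical transcript in place of all exons, 15 of these 20 genes were still among the 20 highest.

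The most abundant noncoding genes by counts were *RN7SL1* (6136, 11903 and 10053 CPM), *MALAT1* (2145, 2334 and 1899 CPM), *NORAD*, *SNHG29* and *FENDRR*. *MALAT1* is a nuclear-retained RNA and *NORAD* binds PUMILIO proteins. *FENDRR*, which is transcribed divergently from the gut mesenchyme gene *FOXF1*, had 366, 423 and 327 CPM. *RN7SL1* was the least even of them, with a level in replicate 1 well under that of the other two libraries.

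The fibroblast label was checked against a list of 27 lineage genes, of which 26 were expressed and 17 exceeded 100 TPM. *VIM*, which encodes the intermediate filament of mesenchymal cells (chromosome 10, 17228241 to 17237593, GRCh38, 10 exons), had 3963, 3541 and 3223 TPM. *THBS1*, a secreted matrix glycoprotein that activates latent TGF-β (chromosome 15, 39581079 to 39599466), had 2591, 1929 and 2115 TPM. *PDGFRA*, a growth factor receptor of fibroblasts (chromosome 4, 54229280 to 54298245), had 179, 179 and 128 TPM. By rank among expressed nuclear protein-coding genes, *VIM* was 8, *THBS1* 14 and *PDGFRA* 808 of 11396.

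Beside *THBS1*, the matrix genes of this list included *COL1A1* (964 ± 236 TPM, SD, n = 3), *COL6A1* (911 ± 128 TPM) and *SPARC* (900 ± 159 TPM). The surface markers *THY1* (514 ± 60.9 TPM) and *CD248* (337 ± 82.6 TPM) were also abundant. The lowest expressed members were *S100A4* (32.0 ± 8.71 TPM), the mesenchymal transcription factor *PRRX1* (20.9 ± 3.57 TPM) and *FAP* (11.6 ± 1.77 TPM), the surface protease widely used to mark activated fibroblasts. *PDPN*, the podoplanin gene, had 1, 0 and 1 counts. In such bulk samples, fewer cells of a type and less RNA per cell cannot be told apart.

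**Figure D1:**
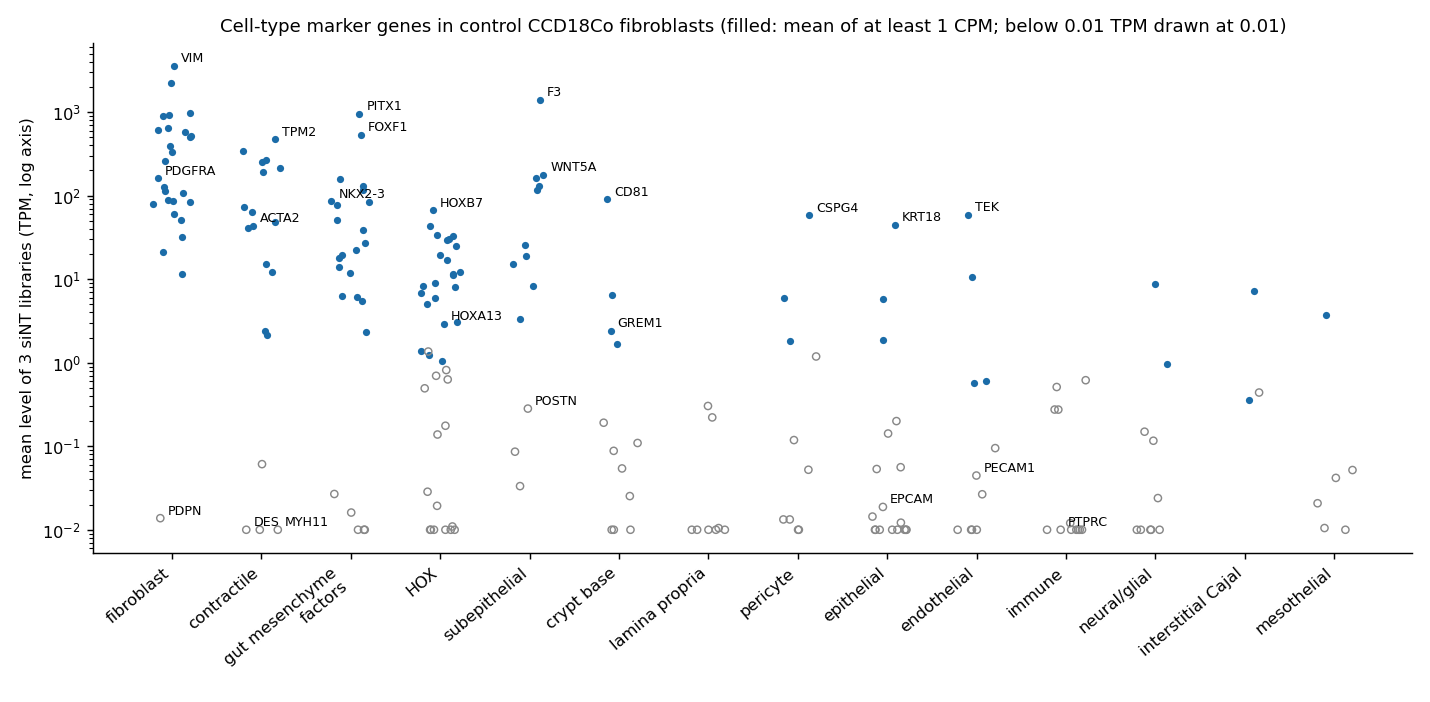
Each point is 1 gene of the list named on the horizontal axis, and the vertical log axis gives its mean level over the 3 siNT libraries in TPM. Filled points have a mean of at least 1 CPM, as 26 of 27 fibroblast genes do and none of 12 immune or 8 lamina propria genes.

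The contractile list was split. It held 15 expressed genes of 19, with *TPM2* (473 ± 45.2 TPM), nonmuscle myosin *MYH9* (346 ± 56.0 TPM) and the integrin *ITGA8* (266 ± 61.1 TPM) at the top. *ACTA2*, which encodes the smooth muscle actin that defines myofibroblasts (chromosome 10, 88935074 to 88991339), had 51.2, 43.1 and 35.8 TPM, rank 3744 among nuclear coding genes. Its level was 115 TPM when only the canonical transcript's length was used, so its place is not sharply fixed. The lowest expressed members were *LMOD1*, *TNS1* and *SYNPO2*, at 12.2, 2.42 and 2.17 TPM. The 4 members under 1 CPM in every library were genes of differentiated smooth muscle. *CNN1* had 2, 1 and 4 counts, *DES* 0, 0 and 1, *PLN* 0, 1 and 0, and *MYH11* 0, 1 and 3. Other smooth muscle genes were not near 0: *ACTG2*, another smooth muscle actin gene, had 41.0 ± 1.76 TPM, *TAGLN* 48.7 TPM and *SMTN* 72.3 TPM.

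Genes of other cell types were mostly at the floor. None of 12 immune markers was expressed, *PTPRC* (the leukocyte antigen CD45) having 1, 0 and 1 counts. *CD68* is not informative, since 81.6% of its exon length overlaps another gene on the same strand, where the counting would drop reads. Of 18 epithelial markers 3 were expressed, and the defining *EPCAM* (0, 0 and 2 counts) and *CDH1* (0, 2 and 1 counts) were not. The epithelial genes present were the simple keratins *KRT18* (49.3, 36.2 and 49.4 TPM) and *KRT8* (5.25, 5.90 and 6.04 TPM) and the claudin *CLDN4* (1.22, 1.24 and 3.19 TPM).

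Of 11 endothelial markers 4 were expressed, led by *TEK*, the angiopoietin receptor TIE2, at 66.4, 59.0 and 50.6 TPM, and by *EGFL7* at 10.5 ± 1.85 TPM. *CDH5*, the endothelial cadherin, had 0 counts in every library, and *PECAM1* had 8, 2 and 3. The other expressed members were low, *VWF* (von Willebrand factor) with 85, 73 and 77 counts and *TIE1* with 23, 62 and 80 counts. Of 10 pericyte markers 3 were expressed, *CSPG4* (57.9 ± 10.5 TPM), *MCAM* and *RGS5*, while *KCNJ8* had 0 counts. Of 10 neural markers 2 were expressed, among them *SNAP25* (0.961 TPM), with *SOX10* and *S100B* at 0. *ETV1* and *KIT* were expressed of 3 markers of interstitial cells of Cajal, *KIT* only through replicate 1 (82, 32 and 40 counts). Of 6 mesothelial markers *CALB2* was expressed.

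Of 25 transcription factors of gut mesenchyme 20 passed 1 CPM, and 5 exceeded 100 TPM. None of the 20 varied between libraries by 2-fold, beside 1.83% of all expressed genes. *PITX1*, a homeobox factor best known from the hindlimb (chromosome 5, 135027734 to 135034813, 3 exons), had 984, 947 and 937 TPM, rank 62 among nuclear coding genes. *FOXF1*, which patterns the mesenchyme of gut and lung (chromosome 16, 86510527 to 86515422), had 602, 503 and 503 TPM. These libraries also held *TBX2* (158 ± 24.1 TPM), *TCF21* (129 ± 24.7 TPM) and *FOXL1* (116 ± 15.3 TPM), the last a marker of subepithelial telocytes. *NKX2-3*, which shapes the mesenchyme and vessels of the intestine and spleen, had 85.5 ± 12.5 TPM, and the Hedgehog effectors *GLI2*, *GLI3* and *GLI1* had 39.3, 18.0 and 14.0 TPM. The lowest expressed were *NKX3-2*, *GATA6* and *ISL1* (6.04, 5.48 and 2.32 TPM). *GATA4* and *HAND2* had 0 counts, *BARX1* 1 and *HAND1* 2 over the 3 libraries.

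Of 39 *HOX* genes, 23 were expressed, none above 100 TPM. *HOXB7* (66.8 ± 2.76 TPM), *HOXA9* (42.9 ± 1.04 TPM) and *HOXA11* (33.6 ± 4.31 TPM) led. Among the most posterior genes, *HOXA13* had 188, 178 and 220 counts (2.93 ± 0.226 TPM) and *HOXB13* 54, 61 and 31 counts, the latter crossing 2-fold between libraries. *HOXD9* and *HOXD11* had 0 counts and *HOXD10*, *HOXD12* and *HOXD13* 1 count each over the 3 libraries, whereas *HOXD8* had 354, 432 and 467.

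Lists for the fibroblast populations of the human colon gave unequal results. The subepithelial list, cells close to the crypt top, had 10 of 13 genes expressed. *F3*, the clotting initiator tissue factor, led it at 1552, 1482 and 1188 TPM, followed by *WNT5A* (179 ± 22.1 TPM), *PDGFRA* and *WNT5B* (130 ± 13.3 TPM). *POSTN* (periostin) was at 33, 15 and 10 counts and *FRZB* and *AGT* were also near 0. None of 8 lamina propria markers was expressed, and *CXCL14*, *CCL11* and *CCL8* had 0 counts. Of 12 crypt base genes 4 were expressed, led by *CD81* (90.6 ± 10.3 TPM), which is broadly expressed, and including the BMP antagonist *GREM1* (2.42 ± 0.417 TPM) and complement *C3* (1.81, 1.91 and 1.34 TPM). The R-spondin gene *RSPO3* had 0 counts. Inflammatory fibroblast genes were expressed in 7 of 10 cases, from *TNFRSF11B* (osteoprotegerin, 671 ± 41.1 TPM), *IL11* (70.4 ± 16.4 TPM) and *MMP3* (62.8 ± 37.3 TPM) to *PTGS2* (2.24 ± 0.755 TPM).

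The study's signatures of cancer-associated fibroblasts (CAFs), which it derived from tumour tissue and names ECM-CAF, CP-CAF (collagen-producing), CS-CAF (complement-secreting) and Ctr-CAF (contractile), were read as lists of levels. ECM-CAF genes were expressed in 20 of 30 cases and CP-CAF genes also in 20 of 30. For CS-CAF the count was 11 of 29, for Ctr-CAF 13 of 29, for its type I 13 of 28 and for its type II 10 of 30. The highest members were *COL6A3* (645 ± 115 TPM) and *COL1A2* (608 ± 168 TPM) for ECM-CAF, *COL1A1* and *PLAU* (844 ± 169 TPM) for CP-CAF, *PTX3* (198, 205 and 164 TPM) for CS-CAF and *EPAS1* (480 ± 41.2 TPM) for Ctr-CAF. Of all protein-coding genes 57.1% were expressed, against 66.7% for ECM-CAF and for CP-CAF, 37.9% for CS-CAF, 44.8% for Ctr-CAF, 46.4% for its type I and 33.3% for its type II. No test of the lists was made.

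Of the matrix genes that the study followed, *LTBP2*, which encodes a latent TGF-β binding protein (chromosome 14, 74498183 to 74612378, 36 exons), had 10.8, 9.63 and 8.61 TPM. It lay below its relatives *LTBP4* (80.7 ± 14.3 TPM), *LTBP1* (72.0 ± 14.6 TPM) and *LTBP3* (20.1 ± 3.12 TPM), with no overlap between its libraries and theirs. *TGFB1* was the main TGF-β ligand gene at 410, 261 and 349 TPM, against 5.04 ± 1.19 TPM for *TGFB2* and 0.573 ± 0.154 TPM for *TGFB3*. Its receptor gene *TGFBR2* had 228 ± 18.9 TPM. These TGF-β genes other than *LTBP2* were added to the description after their values were seen.

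**Figure D2:**
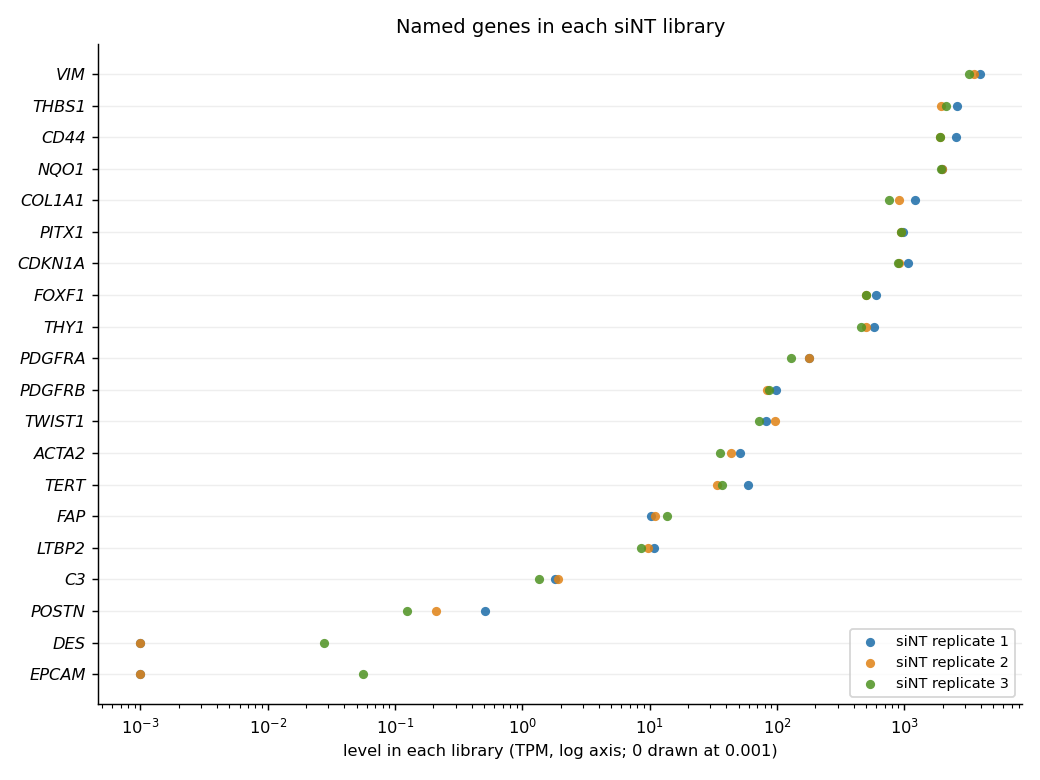
Horizontal positions give the level of each named gene in TPM on a log axis, with 1 point for each siNT library and values of 0 drawn at 0.001. *VIM* and *THBS1* are at or above 1929 TPM in all libraries, *ACTA2* between 35.8 and 51.2 TPM, and *POSTN*, *DES* and *EPCAM* under 1 TPM.

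Cell cycle genes were expressed throughout. All 26 proliferation genes were expressed, 12 of them above 100 TPM, with *PCNA* at 433 ± 23.7 TPM, *TYMS* at 234 ± 15.7 TPM and *MKI67* at 135 TPM. Beside them, *CDKN1A*, the p53-induced inhibitor of cyclin-dependent kinases, had 1072, 902 and 893 TPM, rank 63 among nuclear coding genes, and *CCND1*, the D-type cyclin, had 1314, 895 and 1106 TPM. All 12 p53 target genes were expressed, including *MDM2* (150 ± 12.7 TPM).

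Stress and signalling lists were read in the same way. Variable means here a highest library at least 2-fold above the lowest, which held for 1.83% of all expressed genes. All 13 genes of the unfolded protein response were expressed, led by the chaperone *CALR* (1610, 1354 and 1384 TPM), and none was variable. Of 18 hypoxia and glycolysis genes 15 were expressed, led by *ENO1* (1446 ± 92.0 TPM), with *ANGPTL4* the variable one. Of 20 immediate early genes 17 were expressed, with *FOSL1*, an AP-1 subunit, highest at 413, 322 and 557 TPM. Among 17 cytokine genes 10 were expressed, led by *CSF1* (266 ± 40.1 TPM) and *LIF* (173 ± 5.75 TPM), and 2 of the 10, *CXCL8* and *CXCL1*, were variable. The interferon list held 16 expressed genes of 23, of which *ISG15* was highest at 94.3 ± 12.1 TPM. Of 10 metallothionein genes 4 were expressed, with *MT2A* at 1033, 775 and 1110 TPM. Among 8 genes used to follow senescence, 2 were variable, *CXCL8* and *GDF15*, and *IGFBP7* had 817 ± 37.8 TPM. *LMNB1*, a lamin gene whose level drops in senescent cells, had 67.3, 77.8 and 73.7 TPM.

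*TERT*, the catalytic subunit of telomerase (chromosome 5, 1253147 to 1295068, 16 exons), had 4122, 2621 and 3227 counts, or 58.9, 33.9 and 37.3 TPM. The gene is silent or nearly so in most cultured fibroblasts that have not been immortalised, and the sources used here describe no such step for this line. Its neighbours in rank included *ACTA2*, at 43.4 TPM each. No annotated exon on its strand overlaps it, and the counts do not show which part of the transcript the reads cover. *TERT* was singled out after its values were seen.

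The libraries agreed closely gene by gene. The median coefficient of variation over expressed genes was 9.38%, and the median ratio of the highest to the lowest library 1.20. The biological coefficient of variation that edgeR estimated was 11.9% in common, falling from 19.0% at 1 CPM through 13.7% at 10 CPM to 9.59% at 100 CPM, and standing at 10.4% at 1000 CPM. A gene was called variable when its highest library was at least 2-fold above its lowest, and 238 of the 12995 expressed genes (1.83%) were. These were 161 coding genes (1.41% of those expressed), 45 long noncoding RNAs (4.50%) and 32 genes of other types. At a mean of at least 5 CPM, 63 of 10605 genes were variable. Above 100 CPM the only 1 was the mitochondrial rRNA *MT-RNR2*.

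The variable genes were set apart most often by replicate 3, which was the outlying low library for 70 of them and the outlying high one for 26. Replicate 2 stood apart as high for 52 and low for 34, and replicate 1 as high for 31 and low for 25. The genes nearest to the limit were *HNMT* (a ratio of 2.00) inside it and *C1orf53* (also 2.00 when rounded, from slightly below) outside it.

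**Figure D3:**
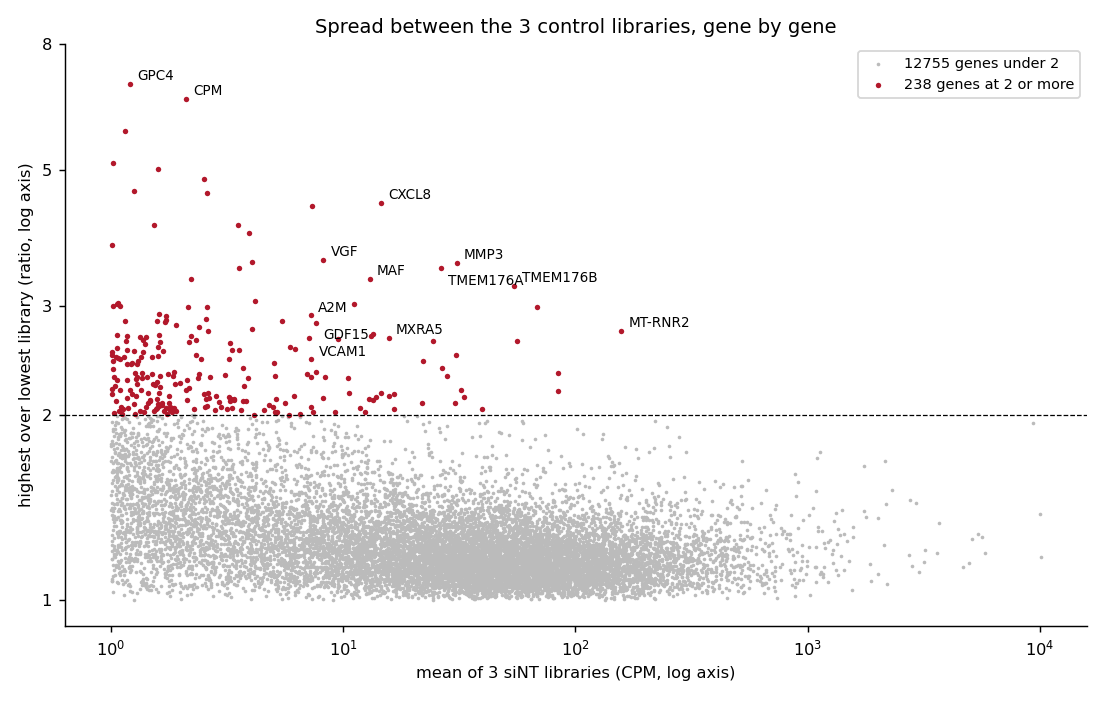
Each of 12993 points is an expressed gene, with its mean CPM over the siNT libraries on the horizontal log axis and the ratio of its highest to its lowest library on the vertical log axis. The 238 red points lie at a ratio of 2 or more, most of them at low mean levels, and *MT-RNR2* is the rightmost of them.

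Among variable genes with a symbol and a mean of at least 5 CPM, *CXCL8* had the largest ratio. *CXCL8*, the neutrophil chemokine interleukin-8 (chromosome 4, 73740519 to 73743716), had 5.57, 13.3 and 24.6 CPM, a ratio of 4.42 (95% exact counting interval 3.86 to 5.07). *MMP3*, the matrix metalloproteinase stromelysin (chromosome 11, 102835801 to 102843609), had 48.6, 13.7 and 30.1 CPM. The 2 genes did not rank the libraries alike, since *CXCL8* was lowest in replicate 1 and *MMP3* highest there. Below 5 CPM on average, *PTGS2*, the inducible cyclooxygenase, had 1.53, 2.15 and 3.03 TPM and followed the order of *CXCL8*. *CXCL1*, another neutrophil chemokine, had 1.70, 3.51 and 2.57 CPM and was highest in replicate 2. *IL6*, at 25.1, 33.0 and 33.1 CPM, stayed under 2-fold.

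The promoter of *CXCL8* is shown because this gene stood first by ratio. RefSeq windows on GRCh38.p14 run from 250 bases before to 50 after a start, and capitals in this one (forward strand, chr4:73740319-73740618) mark the AP-1 site TGANTCA, searched on both strands.
CXCL8: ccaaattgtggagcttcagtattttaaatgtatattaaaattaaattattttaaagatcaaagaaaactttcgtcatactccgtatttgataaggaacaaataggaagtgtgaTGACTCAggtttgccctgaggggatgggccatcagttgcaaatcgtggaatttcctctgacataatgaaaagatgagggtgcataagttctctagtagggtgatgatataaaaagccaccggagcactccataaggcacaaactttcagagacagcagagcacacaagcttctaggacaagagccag
The site begins 137 bases before the start. It was found in 7.71% of 35116 promoter windows in the RefSeq table and in 15 of the 176 windows (8.52%) that the table holds for 124 of the variable genes, beside 5.26% for expressed genes.

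*TMEM176A* and *TMEM176B*, neighbours that encode related 4-pass membrane proteins, were low in replicate 3 together. *TMEM176A* (chromosome 7, 150800403 to 150805118, forward strand) had 34.5, 34.4 and 9.98 CPM, and *TMEM176B* (150791285 to 150801360, reverse strand) had 72.1, 69.4 and 22.2 CPM. Without replicate 3, their ratios were 1.01 and 1.05. By the RefSeq starts used here, the pair is transcribed divergently from starts 405 bases apart. The *TMEM176B* start is the one nearest to that of *TMEM176A*, and the full gene spans given above overlap. At that distance the RefSeq windows share 96 bases, in capitals below, each window being printed on its own gene's strand (chr7:150800519-150800818 forward and chr7:150800315-150800614 reverse).
TMEM176A: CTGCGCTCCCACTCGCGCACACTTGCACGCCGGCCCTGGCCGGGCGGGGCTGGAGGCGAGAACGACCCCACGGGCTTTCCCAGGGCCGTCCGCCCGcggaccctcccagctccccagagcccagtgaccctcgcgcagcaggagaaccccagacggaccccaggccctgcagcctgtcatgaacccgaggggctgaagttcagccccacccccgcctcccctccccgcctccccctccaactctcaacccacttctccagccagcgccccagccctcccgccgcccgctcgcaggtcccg
TMEM176B: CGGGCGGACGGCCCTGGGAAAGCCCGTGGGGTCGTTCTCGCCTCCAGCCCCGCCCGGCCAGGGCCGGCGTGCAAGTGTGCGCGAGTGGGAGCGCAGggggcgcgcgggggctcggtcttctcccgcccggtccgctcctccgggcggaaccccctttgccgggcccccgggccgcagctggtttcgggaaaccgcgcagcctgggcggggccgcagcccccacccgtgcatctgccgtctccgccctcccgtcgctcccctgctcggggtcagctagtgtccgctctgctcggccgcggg
The windows are GC-rich, at 74.0% and 77.7% G and C, where that of *CXCL8* has 39.3%.

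Other variable genes above 5 CPM had a low replicate 3: the FOXO target *DEPP1* (10.8, 16.8 and 5.56 CPM), the protease inhibitor *A2M* (10.2, 8.01 and 3.51 CPM) and the prostaglandin D2 receptor *PTGDR2* (6.87, 7.06 and 2.48 CPM). *SERPINF1*, *MXRA5* and *MAP2K6*, which encodes an activator of p38 kinase, were also lowest there, with ratios of 2.67, 2.67 and 2.64. Replicate 1 was high for the transcription factor *MAF* (21.6 CPM, against 6.48 CPM in its lowest library, replicate 3), the stress-induced cytokine *GDF15* (12.6, 4.46 and 5.90 CPM), *SIPA1L2* and the proprotein convertase *PCSK6*. Replicate 2 was low for the neuropeptide precursor *VGF* (9.65, 3.28 and 11.7 CPM) and for the cadherin *CDH6* (61.1, 29.2 and 77.0 CPM). *SPHK1*, a sphingosine kinase, was high in replicate 3 (10.8, 7.82 and 21.0 CPM). *MIR3648-1*, a microRNA gene, had 13.7, 3.14 and 5.19 CPM, which in these libraries counts longer RNA over the locus rather than the mature microRNA.

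**Figure D4:**
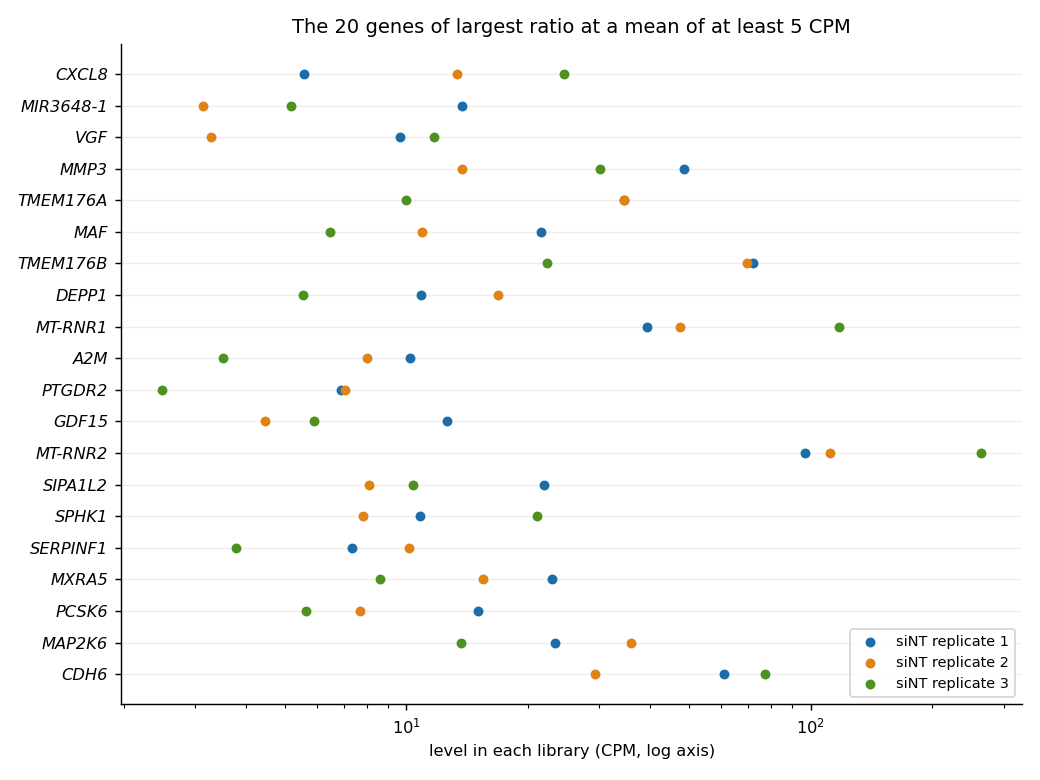
The 20 genes of largest ratio among those with a symbol and a mean of at least 5 CPM are listed from the top, with a point for the CPM of each siNT library on a log axis. The low point of *TMEM176A*, *TMEM176B*, *A2M* and *PTGDR2* is replicate 3 in each case.

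The genes of largest ratio at any level were low in counts. *GPC4* (glypican 4) had 125, 25 and 21 counts, a ratio of 6.89 with a counting interval of 4.32 to 11.5, and *CPM*, carboxypeptidase M, had 103, 172 and 29 counts, a ratio of 6.51 (4.38 to 10.0). Variable members of the identity lists were *TNS1* among contractile genes, *CLDN4*, *TIE1*, *KIT* and *CALB2* among markers of other cells, *NSG1* and *BMP5* among subepithelial genes and 1 gene of the crypt base list. Beside the 1.83% of all expressed genes, these were 2 of 10 expressed subepithelial genes and 1 of 4 of the crypt base, with 3 of 7 inflammatory fibroblast genes and 4 of 13 Ctr-CAF genes. That background is not matched for level, and the share was 0.594% among genes with a mean of at least 5 CPM. *BMP5* and *PTGS2* lay below that mean, and *NSG1*, *MMP3* and *CXCL8* above it. Of the 26 expressed fibroblast genes, the 20 gut mesenchyme factors and the 21 collagens, none was variable, which is near the background share for lists of this size. In the CAF signatures the variable genes were *ADAMTS9*, *GPR20*, *GPRC5C* and *CPM* (Ctr-CAF), *ID1* (Ctr-CAF-I), *SERPINF1* and *ABI3BP* (CS-CAF) and *NTM* and *NPR3* (CP-CAF). Elsewhere they were *FBN2* (matrix), *IFI6* (interferon response), *ANGPTL4* (hypoxia), *H3C14* (histone) and *RNVU1-18* (small nuclear RNA).

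Below 2-fold, whole gene groups differed between the libraries in 1 direction. As background, the lowest level lay in replicate 1 for 34.2% of expressed genes, in replicate 2 for 37.8% and in replicate 3 for 27.9%. The highest level lay in them for 32.0%, 32.3% and 35.7%. Genes of a list share reads' length, base composition and libraries, so the counts below are descriptions of these 3 libraries and carry no test.

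The clearest group was the replication-dependent histones, whose genes are switched on in S phase and whose mRNAs end without a poly(A) tail. Of 59 expressed members, 57 were lowest in replicate 1, and their summed levels were 3640, 5271 and 5264 CPM. *H1-5*, a linker histone, had 187, 344 and 307 CPM, and *H3C2* had 131, 224 and 204 CPM. After correction of each library for its trends with GC content and transcript length, 57 members were still lowest in replicate 1.

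Proliferation genes pointed the same way by less. Of 26 members 24 were lowest in replicate 1 and 22 were highest in replicate 3, with sums of 3310, 3596 and 3810 CPM, a ratio of 1.15 against 1.45 for the histones. *CCNA2*, cyclin A2, had 96.4, 124 and 129 CPM, while *MKI67* went the other way, with 491, 441 and 457 CPM. Of 79 ribosomal protein genes 74 were lowest in replicate 1 (sums of 27813, 32438 and 31677 CPM), a count that was 57 when transcript length was corrected. Structural noncoding RNAs were lowest in replicate 1 in 33 of 43 cases, and their sum, mostly *RN7SL1*, was 6459, 12365 and 10460 CPM. Gene length also moved with this library: the deviation of replicate 1 correlated with transcript length across genes (Spearman's rho 0.28), against -0.16 and -0.12 for the other libraries. The same measure for GC content was 0.23, -0.27 and 0.06 in replicates 1, 2 and 3. The part of growth state, RNA preparation or length in these differences was not tested.

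Matrix genes were mostly highest in replicate 1 instead. That is also the library whose deviation rose with transcript length, and the counts in this paragraph are not corrected for length. Of 21 expressed collagen genes, 14 were highest in replicate 1 and 15 lowest in replicate 3, with sums of 15721, 13343 and 11352 CPM. *COL1A2*, a chain of type I collagen, had 2147, 1790 and 1299 CPM, *COL3A1* 1103, 914 and 709 CPM, and *COL6A3* 4212, 3716 and 3150 CPM. Of 23 matrix glycoprotein genes 15 were highest in replicate 1, among them *IGFBP5* (2805, 1667 and 1985 CPM). Their sums were 16410, 12745 and 13792 CPM, lowest in replicate 2 and not in replicate 3. Of the 26 fibroblast genes 17 were lowest in replicate 3.

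Cholesterol synthesis genes set replicate 2 apart, with 15 of 18 highest there and sums of 2486, 3057 and 2475 CPM. *HMGCS1*, an early enzyme of the pathway, had 79.9, 123 and 93.7 CPM, *INSIG1*, its sterol-sensing regulator, 209, 330 and 250 CPM, and *LSS*, which closes the sterol ring, 257, 332 and 234 CPM. Mitochondrial mRNAs were lowest in replicate 2 in 12 of 13 cases, *MT-CO1* having 11539, 8343 and 10027 CPM. After correction for GC content and transcript length, the counts were 17 of 18 for cholesterol synthesis and 12 of 13 for mitochondrial mRNAs. The 2 mitochondrial rRNAs behaved otherwise and were highest in replicate 3, *MT-RNR1* at 39.4, 47.4 and 118 CPM and *MT-RNR2* at 96.6, 111 and 265 CPM. Ribosomal RNA was depleted from these libraries, and the part of that step in their spread was not tested.

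**Figure D5:**
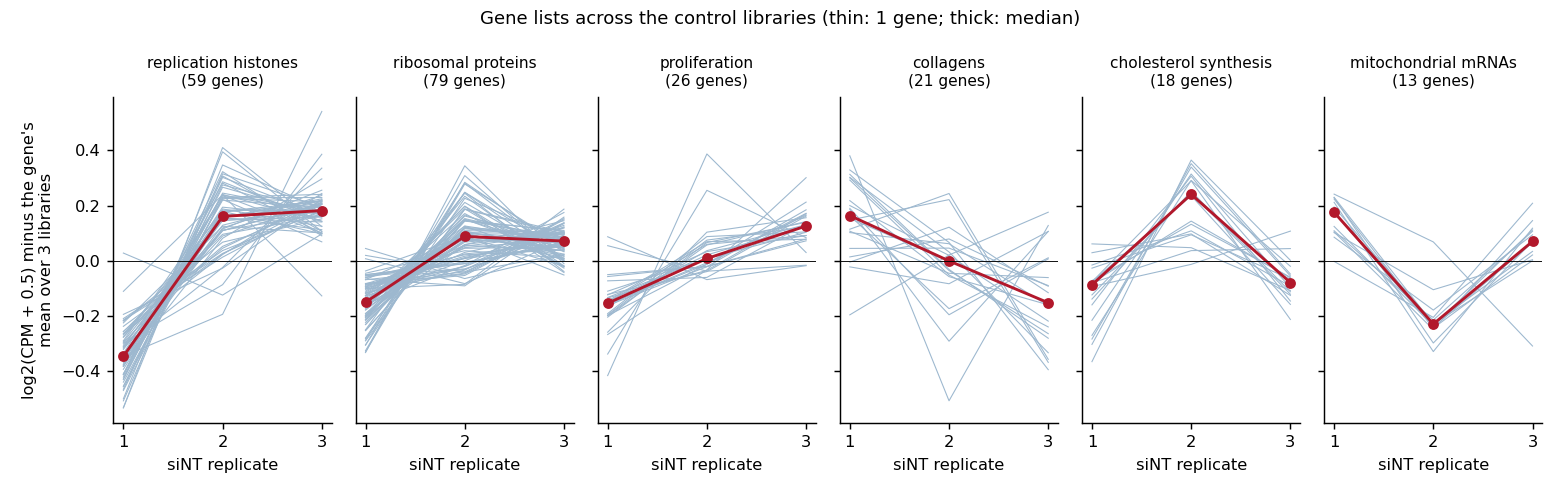
Each thin line joins the values of 1 gene in the 3 siNT libraries, as log2(CPM + 0.5) minus the gene's own mean, and the thick line is the median of the list named above the panel. The replicates have no order, and the lines only tie a gene's points together. Replicate 1 is the low library for histones, ribosomal proteins and proliferation genes, and replicate 2 is high for cholesterol synthesis and low for mitochondrial mRNAs.

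In 3 of these groups most promoter windows held the same short motif, and the window of 1 abundant member is shown for each. Capitals mark CCAAT, the box bound by NF-Y, searched on both strands (ATTGG on the reverse). The windows are those of *H1-5* (histones, reverse strand, chr6:27867539-27867838), *MKI67* (proliferation, reverse strand, chr10:128126374-128126673) and *LSS* (cholesterol synthesis, reverse strand, chr21:46228725-46229024). As given above, *MKI67* itself went against its group between the libraries.
H1-5: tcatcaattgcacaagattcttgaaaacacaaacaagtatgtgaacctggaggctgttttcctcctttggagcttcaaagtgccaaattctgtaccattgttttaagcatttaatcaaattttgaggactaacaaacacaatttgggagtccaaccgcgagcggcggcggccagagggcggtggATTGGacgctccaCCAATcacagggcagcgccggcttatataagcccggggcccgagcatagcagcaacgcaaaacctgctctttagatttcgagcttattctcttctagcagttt
MKI67: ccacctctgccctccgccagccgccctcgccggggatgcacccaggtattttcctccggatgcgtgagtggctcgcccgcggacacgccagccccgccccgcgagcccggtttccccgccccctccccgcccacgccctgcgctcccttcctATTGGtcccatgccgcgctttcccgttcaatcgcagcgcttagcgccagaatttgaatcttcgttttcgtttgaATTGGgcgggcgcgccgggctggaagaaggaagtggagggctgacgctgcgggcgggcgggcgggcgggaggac
LSS: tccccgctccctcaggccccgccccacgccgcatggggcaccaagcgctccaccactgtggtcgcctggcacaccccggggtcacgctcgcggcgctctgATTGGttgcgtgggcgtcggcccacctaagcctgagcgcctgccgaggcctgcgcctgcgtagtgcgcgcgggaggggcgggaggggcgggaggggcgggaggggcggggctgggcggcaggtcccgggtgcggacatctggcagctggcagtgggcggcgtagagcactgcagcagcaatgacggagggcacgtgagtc
CCAAT lay in 49 of 56 windows of histone genes (87.5%), 22 of 25 of proliferation genes (88.0%) and 13 of 17 of cholesterol synthesis genes (76.5%), where 34.6% of all windows held it. For ribosomal proteins it was 33.3%, and for collagens 27.8%. The TATA box TATAAA was held by 69.6% of histone windows and by 1 of 25 proliferation windows. It was held by 11.5% of all windows and by 6.36% of the windows of expressed genes. A match is a run of letters and not a measured binding site, and the windows cover 53 of 59 histone, 19 of 26 proliferation and 12 of 18 cholesterol synthesis genes, some with several starts.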

How the data were processed

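Per the labels and the study's methods, the deposited table holds raw read counts per gene, which the authors made from stranded, ribosomal RNA-depleted libraries aligned to GRCh38 with STAR 2.7.1a and counted with HTSeq 0.11.2. No source used here gives the annotation release or the strand setting. Of coding genes covered for at least 90% by another gene's exons, 4 of 522 were expressed where the other gene lay on the same strand and 11 of 34 where it lay on the opposite strand. HTSeq leaves out reads that fall in 2 genes or map to several places, so genes with same-strand overlaps or near-identical copies read low.

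From these counts, CPM was computed with TMM factors (edgeR 4.0.16, R 4.3.3), TPM with exon lengths of GENCODE 44 (60462 identifiers matched), and the biological coefficient of variation with an intercept-only fit. Expressed means a mean of at least 1 CPM. A gene was variable at a highest to lowest ratio of at least 2, with 95% exact binomial counting intervals. No significance test was made, since there is 1 group. The procedure was run on simulated counts with the same biological coefficient of variation for all genes, lower than that estimated here. The simulation therefore does not show how often unchanged genes pass 2-fold at low levels in these libraries. The libraries differed beyond counting noise (chi-square per degree of freedom 38.8 to 52.4), so each was counted as a library of its own. Genes were named by rule: the 20 of highest TPM, the 10 and 5 (noncoding) of highest counts, high and low members of each list, defining markers, list members that were variable, and the 20 of largest ratio. The members, lists and rules were chosen with earlier results of these data known. In the CAF signatures 4 symbols could not be matched. Genes that mark donor sex are not named. The alternatives tried covered scaling, filters, length and GC corrections, and leaving out libraries; the list counts were rerun under scalings and corrections added after seeing the data. Some members of the lists are not reported here.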

Additional observations from a re-analysis of the deposited data

How the results depend on the processing

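The number of variable genes was 236 with RLE or upper-quartile factors when the limit of 1 CPM was reapplied (235 among the same 12995 genes), 264 with total counts and 237 or 235 with GC content or transcript length corrected, and 206 of the 238 were also variable with both corrected. It depended on the limits: 525 genes at a mean of at least 0.5 CPM, 63 at 5 CPM, 150 with at least 1 CPM in every library, 13299 with no filter, 1373 at a ratio of at least 1.5 and 28 at 3. Without each library in turn it was 71 to 145, 2 libraries having less room to differ than 3, and the lowest count was without replicate 3. Without the 50 genes of highest counts, the coding share was 98.4% and the misc_RNA share 0.0460%, since *RN7SL1* is among those genes. For the counts of list members with a shared lowest or highest library, all values stayed within 1.5 times those given under every scaling and correction tried. That limit is wide, so it does not show that each count stayed apart from the background share. Levels in TPM depend on the gene length used, as for *VIM* (5439 TPM with the canonical length) and *THBS1* (1646 TPM). Depth limits ratios near 1 CPM, where that of *GPC4* has a counting interval of 4.32 to 11.5. Each ratio named for 1 of the 20 variable genes fell under 2 without the library that stood apart, as for *CXCL8* (1.85 without replicate 1) and *MMP3* (1.61 without replicate 2). For most of them this was fixed in advance, because the library that stood apart is defined as the one farther from the middle one on a log scale. The fall therefore tells nothing more about these genes. No paired analysis was possible because 1 group was described and nothing was compared with it.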

Other observations

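Genes of the NRF2 antioxidant response were abundant in these control cells. A group of 17 was put together after the values of several had been seen, so the counts are a description. *NQO1*, a quinone reductase, had 1988, 1976 and 1928 TPM. Its coefficient of variation in CPM (2.21%) was the smallest of the 20 most abundant nuclear coding genes. *TXN* and *PRDX1* (thioredoxin and a peroxiredoxin) had 1616 ± 197 and 1605 ± 74.0 TPM, *TXNRD1* had 1050 ± 47.6 TPM, and the pentose phosphate enzyme *PGD* had 785, 707 and 690 TPM. *SLC7A11*, the cystine transporter, had 340 ± 19.2 TPM, *GCLM* 164 ± 10.7 TPM and *HMOX1* 82.5, 52.4 and 87.6 TPM. *SRXN1* was lowest at 3.83 ± 1.87 TPM, and 90.7% of its exon length is shared with another gene on its strand, where reads are not counted.

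*HIPK2*, a nuclear kinase, had 756, 625 and 596 TPM, rank 125 of 11396 nuclear coding genes. *CDKN2A* and *CDKN2B*, whose products restrain the cell cycle, had 44.1 ± 2.79 and 22.1 ± 2.84 TPM beside the *TERT* level of 43.4 ± 13.6 TPM. *DKC1*, a protein partner of telomerase, had 24.5 ± 2.40 TPM. The telomerase RNA *TERC* had 2, 0 and 3 counts, but 81.0% of its length is shared with another gene on its strand, so its level cannot be read from these counts. These genes were named after their values were seen.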
